A study of Mus musculus with 4 samples.

Results

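Class I MHC molecules are made of a polymorphic heavy chain and the invariant light chain beta-2-microglobulin, and they carry peptides from inside the cell to its surface, where cytotoxic T cells read them. Peptides cut by the proteasome are pumped into the endoplasmic reticulum by the TAP transporter, trimmed there, and loaded onto the heavy chain with the help of tapasin and of general folding proteins. Interferons and the transactivator NLRC5 raise the dedicated genes of this pathway in most tissues, while the mature lens has no blood vessels and holds few immune cells. The genes described here are the 10 class I MHC peptide loading genes *B2m*, *H2-K1*, *H2-D1*, *Tap1*, *Tap2*, *Tapbp*, *Tapbpl*, *Calr*, *Pdia3* and *Erap1*, taken by gene name from the 56748 genes of the deposited table. They were listed by function but chosen by their FPKM in these same 4 libraries, with the difference between mutant and control lenses already known, so their values are given as a description and without a test of their own.

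Lenses came from mice of 10 to 12 days of age. The study states that the hyaloid vessels are largely lost by this age but regress fully only later. It also names leftover vessel and ciliary body cells on the dissected lens as a possible confounder. The mutant group had the genotype Fsp1-cre;Pdgfrb+/D849V. In it, Cre expressed from the *Fsp1* (*S100a4*) promoter is meant to switch on a hyperactive D849V form of PDGFRβ from its own locus. The study describes robust activity of a Cre reporter in the lens epithelium from an age later than that of these mice. Expression of the mutant receptor once Cre is on is assumed there rather than shown. The control group is labelled Fsp1-cre;Pdgfrb+/+, so that by its labels it carries the same Cre, whereas the study's methods describe control pools that also held Cre-negative mice with or without the D849V allele. Neither allele is specific to the lens, the line had been bred into FVB/N, and it also carried the Rosa-LSL-tdTomato reporter. Each group had 2 libraries, each a pool of lenses from several mice. The study gives a number of mice for the groups but not for the single pools. Because they are pools, the spread between the 2 libraries of a group is not the spread between animals.

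The libraries held between 18561682 and 18878768 reads recovered from the FPKM, and crystallin genes took 58.6% to 62.9% of them. FPKM are fragments scaled to gene length and sequencing depth, so levels can be set side by side between genes. *Pdgfrb* itself had FPKM of 2.36 and 2.16 in mutant lenses against 2.25 and 1.79 in controls, and FPKM do not tell the D849V transcript from the wild-type one. Of the 10 lens fibre genes on a marker list, 9 had reads and *Lim2* was listed at 0 in all 4 libraries. *Xist* was higher in mutant replicate 2 (FPKM 13.1) and control replicate 1 (15.6) than in mutant replicate 1 (7.62) and control replicate 2 (5.56), a split that crosses the genotypes.

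By rank of mean FPKM, though not by level, the 10 genes spanned almost the whole range of the tested genes. The most abundant lens fibre genes lay far above all 10. A mean FPKM of 0.1 or more was required for testing, which left 15997 genes, and all 10 were among them. *Calr*, which encodes the chaperone calreticulin, was the most abundant with a mean FPKM of 74.1, above 98.4% of the tested genes. *Pdia3*, which encodes the disulfide isomerase ERp57, followed with 29.4, above 96.3% of them. These 2 proteins fold many glycoproteins besides class I. *B2m* had a mean FPKM of 7.97, *H2-D1* of 3.46, *Tapbp* (tapasin) of 2.47, *Tapbpl* (the tapasin-related protein TAPBPR) of 1.46, *H2-K1* of 0.934 and *Erap1*, the peptidase that trims peptides in the endoplasmic reticulum, of 0.622. *Tap1* and *Tap2*, the 2 subunits of the peptide transporter, had only 0.102 and 0.104, just inside the filter and above no more than 0.375% and 0.825% of the tested genes. By the range over the 4 libraries, *Calr*, *Pdia3* and *B2m* each stood apart from the next gene in this order, whereas *H2-D1* and *Tapbp* overlapped, as did *Tapbpl* and *H2-K1*, *H2-K1* and *Erap1*, and *Tap1* and *Tap2*.

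**Figure D1:**
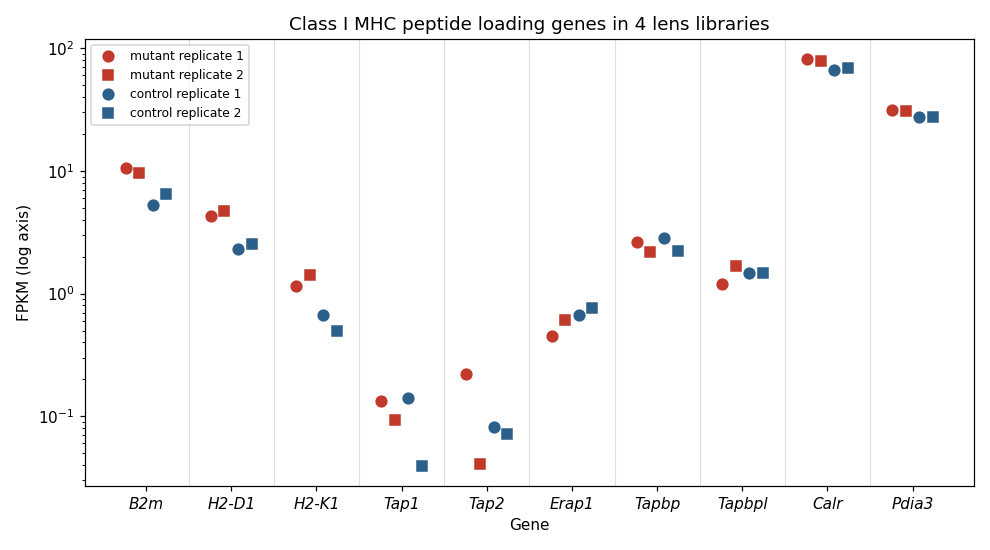
FPKM (log axis) of the 10 class I MHC peptide loading genes, 1 point per library, with mutant libraries in red and control libraries in blue, circles for replicate 1 and squares for replicate 2. Mutant points lie above both control points for B2m, H2-D1, H2-K1, Calr and Pdia3 and below them for Erap1, and the libraries overlap for Tap1, Tap2, Tapbp and Tapbpl.

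The light chain and both heavy chains were higher in mutant lenses, by 1.73-fold for *B2m*, 1.85-fold for *H2-D1* and 2.21-fold for *H2-K1* in mean FPKM. The transporter genes and the 2 tapasin genes showed no such separation, *Calr* and *Pdia3* lay 17.8% and 12.8% higher, and *Erap1* was the one gene with both mutant libraries lower. In all, 5 of the 10 genes had both mutant libraries above both control libraries, as did 18.2% of all tested genes, and 1 of the 10 had both below, as did 18.3% of all tested genes. With each library left out in turn, 5 to 6 genes had all mutant above all control libraries and 1 to 3 had all below, while 32.0% to 37.1% of all tested genes lay above and 32.9% to 34.2% below. No gene of the 10 passed limma with Benjamini-Hochberg adjustment over all genes at a threshold of 0.05, which was met by 6 of the 15997 genes (0.0375%), and none passed with limma voom on recovered reads either. At an unadjusted p under 0.05 the count was 4 of the 10, all higher in mutant lenses, beside 3.39% of all tested genes that were higher at that level and 2.92% that were lower. The median log2 fold change of the 10 genes on log2(FPKM + 0.1) was 0.22, beside 0.0041 over all tested genes. This median includes *Tap1* and *Tap2*, whose control mean FPKM (0.0902 and 0.0767) lay below the filter, so that both passed it through the mutant libraries. Nothing is read from these counts about the 10 genes as a group, since the same contrast was known when they were listed. In whole lenses, more RNA per cell and more cells of a type that expresses a gene cannot be told apart.

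The 3 genes of the class I complex also share letters in their promoters, and these stretches are shown because all 3 were higher in both mutant libraries. Each runs from 250 bases before to 50 bases after the transcription start in RefSeq on GRCm38.p6. Capitals mark TGACG followed, after a gap of 20 bases, by ATTGG, the cores of the X2 and Y boxes of MHC promoters. Further upstream, capitals mark an interferon response motif (GAAA, 2 bases of any kind, GAAA) in *B2m* and the NF-κB motif of class I enhancers, 10 bases long, in *H2-K1* and *H2-D1*.
B2m, chr2:122147437-122147736, plus strand: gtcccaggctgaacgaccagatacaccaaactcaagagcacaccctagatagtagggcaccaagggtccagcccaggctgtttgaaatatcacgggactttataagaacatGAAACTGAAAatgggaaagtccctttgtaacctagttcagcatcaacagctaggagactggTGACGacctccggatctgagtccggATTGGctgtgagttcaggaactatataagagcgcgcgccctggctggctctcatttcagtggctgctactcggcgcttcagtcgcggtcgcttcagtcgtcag
H2-K1, chr17:34000298-34000597, minus strand: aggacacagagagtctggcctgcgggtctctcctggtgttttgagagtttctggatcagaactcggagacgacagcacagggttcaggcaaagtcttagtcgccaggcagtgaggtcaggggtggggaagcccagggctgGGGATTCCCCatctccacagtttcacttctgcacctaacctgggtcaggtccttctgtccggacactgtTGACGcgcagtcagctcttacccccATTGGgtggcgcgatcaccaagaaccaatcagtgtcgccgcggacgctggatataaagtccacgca
H2-D1, chr17:35262844-35263143, plus strand: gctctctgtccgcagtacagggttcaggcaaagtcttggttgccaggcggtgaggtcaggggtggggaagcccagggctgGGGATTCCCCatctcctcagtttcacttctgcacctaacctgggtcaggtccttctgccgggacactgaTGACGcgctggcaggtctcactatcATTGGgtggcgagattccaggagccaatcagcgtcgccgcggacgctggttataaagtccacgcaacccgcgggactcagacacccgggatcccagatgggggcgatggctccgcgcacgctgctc

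The spaced pair TGACG and ATTGG began 78 bases before the start of *B2m*, 41 before that of *H2-K1* and 101 before that of *H2-D1*. Searched on both strands, this spaced pair occurred in 31 of 32851 promoters of the table (0.0944%), which belong to 27 genes, and among the 10 genes it was in those 3 promoters and in none of the other 5 that matched the table. The spacing was chosen after these promoters had been seen, so its presence in these 3 is not a result. The class I gene *H2-M3*, named after its values were seen, is also among the 27 genes. It had 0 and 3 reads in mutant lenses against 2 and 2 in controls. Singly, TGACG was in 20.8% and ATTGG in 37.4% of all promoters. The NF-κB motif was found in the *H2-K1* and *H2-D1* promoters and in 0.0852% of all promoters. The interferon response motif was found in the *B2m* promoter, 139 bases before its start, in the *Erap1* promoter, and in 3.44% of all promoters. Neither of these 2 motifs overlaps the spaced pair in the printed stretches. Promoters of *Tap2* and *Tapbpl* were not matched. Only exact matches to these patterns were counted, so a promoter without a match may still hold a variant of the motif. Letter matches describe the sequence of the reference strain and do not show that a factor binds.

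*B2m* (ENSMUSG00000060802, chromosome 2, 121978167 to 121983564 on mm39) had FPKM of 10.5 and 9.68 in the 2 mutant libraries against 5.26 and 6.43 in controls. Values throughout are in the order replicate 1, replicate 2, mutant before control. These levels rest on 161, 163, 88 and 102 reads. Both mutant libraries lay well above both control libraries, and the difference of the means, 10.1 ± 0.580 (SD, n = 2) against 5.85 ± 0.829, was larger than either SD. The log2 fold change was 0.78 (standard error 0.13), with a range of 0.64 to 0.92 over the 4 fits that omit 1 library. The *B2m* transcript shared none of its words of 31 bases with another transcript of the GENCODE M21 annotation, so the annotation holds no near-identical copy of *B2m*.

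*H2-D1* (ENSMUSG00000073411, chromosome 17, 35481706 to 35486475 on mm39) had FPKM of 4.31 and 4.69 in mutant lenses against 2.31 and 2.55 in controls, from 198, 237, 116 and 121 reads. The lowest mutant library was above the highest control library, and the log2 fold change was 0.86 (standard error 0.12, 0.80 to 0.92 with each library left out). *H2-K1* (ENSMUSG00000061232, chromosome 17, 34214991 to 34219321 on mm39) was less abundant, with FPKM of 1.15 and 1.43 in mutant lenses against 0.665 and 0.499 in controls. These rest on 60, 82, 38 and 27 reads, and the groups again did not overlap. Its log2 fold change was 1.03 (standard error 0.22, 0.84 to 1.21 with each library left out), the largest of the 10 genes, and 0.53 with a pseudocount of 1 in place of 0.1. Of the words of 31 bases in *H2-D1* transcripts, 26.7% occur in transcripts of other genes, 13.8% in *H2-K1*. Of those in *H2-K1* transcripts, 22.8% occur elsewhere, 11.1% in *H2-D1*. FVB/N mice carry class I alleles other than those of the C57BL/6J reference, so the division of reads between the 2 heavy chains is uncertain.

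Reads summed over *H2-D1* and *H2-K1*, whatever their division between these 2 genes, were 258 and 319 in mutant lenses against 154 and 148 in controls. Reads that were assigned to other class I genes or to none fall outside this sum. The summed FPKM of the 2 heavy chains were 5.45 and 6.12 in mutant lenses against 2.98 and 3.04 in controls. The ratio of *B2m* to this sum was 1.93 and 1.58 in mutant lenses against 1.77 and 2.11 in controls. This ratio of light to heavy chain overlapped between genotypes. The ratio of *H2-D1* to *H2-K1* was 3.76 and 3.29 against 3.48 and 5.11 and overlapped as well.

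*Calr* (ENSMUSG00000003814, chromosome 8, 85568479 to 85573563 on mm39) had FPKM of 81.4 and 78.9 in mutant lenses against 67.0 and 69.1 in controls, from 3666 to 4450 reads. *Pdia3* (ENSMUSG00000027248, chromosome 2, 121244256 to 121269168 on mm39) had 31.2 ± 0.248 (SD, n = 2) against 27.7 ± 0.108, from 1597 to 1908 reads. For both genes the replicates were close and the genotypes did not overlap, but the differences were small. The log2 fold changes were 0.24 (standard error 0.083) for *Calr* and 0.17 (standard error 0.082) for *Pdia3*, and neither moved by more than 0.024 with a library left out.

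*Tapbp* and *Tapbpl* did not separate the genotypes. *Tapbp* (ENSMUSG00000024308, chromosome 17, 34134873 to 34148266 on mm39), which bridges the heavy chain to TAP, had FPKM of 2.64 and 2.17 in mutant lenses against 2.83 and 2.23 in controls, a log2 fold change of -0.07 (standard error 0.18). *Tapbpl* (ENSMUSG00000038213, chromosome 6, 125200896 to 125208823 on mm39), an exchange factor that edits the bound peptide, had 1.19 and 1.69 against 1.46 and 1.48, a log2 fold change of -0.04 (standard error 0.20). In both, replicates of one genotype differed by more than the genotypes did. Leaving out single libraries took *Tapbp* from -0.24 to 0.10 and *Tapbpl* from -0.28 to 0.19. Both overlap genes with reads of their own (*Zbtb22* and *Vamp1*, with up to 155 and 197 reads), which may share reads with them.

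The peptide transporter was close to the limit of these libraries. *Tap1* (ENSMUSG00000037321, chromosome 17, 34406527 to 34416199 on mm39) had 13 and 10 reads in mutant lenses against 15 and 4 in controls. *Tap2* (ENSMUSG00000024339, chromosome 17, 34422501 to 34435295 on mm39) had 15 and 3 reads against 6 and 5. *Tap2* passed the filter only through mutant replicate 1, and *Tap1* stayed above it in only 2 of the 4 fits that omit 1 library, where its log2 fold change was -0.19 and 0.34. With log2 fold changes of 0.21 (standard error 0.60) for *Tap1* and 0.27 (standard error 0.66) for *Tap2*, a change as large as that of *B2m* could not be told from none in either transporter gene at this depth.

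*Erap1* (ENSMUSG00000021583, chromosome 13, 74787687 to 74841320 on mm39) went the other way, with FPKM of 0.455 and 0.603 in mutant lenses against 0.671 and 0.760 in controls, from 59, 86, 95 and 102 reads. The groups did not overlap, but mutant replicate 2 and control replicate 1 lay close together. The log2 fold change was -0.38 (standard error 0.23), and -0.21 to -0.56 with each library left out. *Erap1* overlaps *Cast* on the opposite strand, which had up to 155 reads, and whether the counting used strand is not given in the sources used here.

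**Figure D2:**
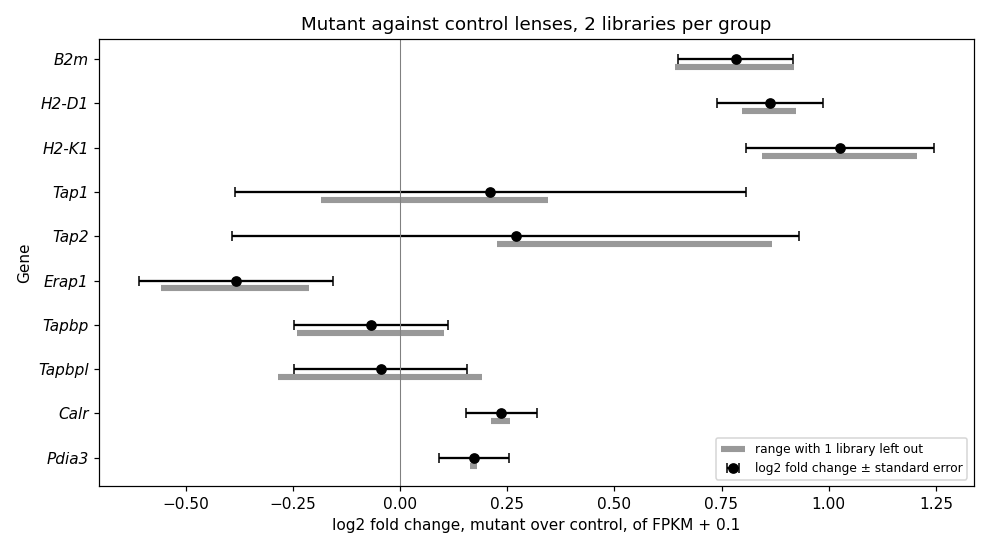
Log2 fold change of mutant over control lenses on log2(FPKM + 0.1) for the 10 genes (black points, bars are standard errors from limma) and the range over the fits that omit 1 library (grey; 4 fits for each gene except Tap1 with 2 and Tap2 with 3, which fell below the filter in the others). B2m, H2-D1 and H2-K1 sit between 0.78 and 1.03, Calr and Pdia3 at 0.24 and 0.17, Erap1 at -0.38, and the bars of Tap1, Tap2, Tapbp and Tapbpl span 0.

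Genes whose centred log2 profile over the 4 libraries lay nearest to that of *B2m* were sought among the 7543 protein-coding genes that reached a mean FPKM of 1. The 5 nearest were *Utp15*, *Tcea2*, *Eno2*, *Dnal4* and *1700003F12Rik*, at Euclidean distances of 0.13 to 0.17. *H2-D1* was at 0.22 with 9 of the 7543 genes closer, *Calr* at 0.57 with 483 closer and *H2-K1* at 0.59 with 567 closer. With only 4 libraries many genes come close by profile, and the measure is a description.

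Other genes of the class I pathway were taken from lists that left out the 10 genes. Of 92 such genes in the table, 63 were tested and none had an adjusted p under 0.05 in limma. An unadjusted p under 0.05 was found for 7 of the 63 with higher FPKM in mutant lenses (3.39% of all tested genes) and for 0 with lower FPKM (2.92% of all tested genes). Both mutant libraries lay above both controls for 29 of the 63 and below for 6 (18.2% and 18.3% of all tested genes), and the median log2 fold change was 0.25. These counts and the median include 5 interferon-stimulated genes with a control mean below the filter. Those 5 passed it through the mutant libraries and could only differ upwards. The adjusted p-values given below are from limma over all 15997 genes.

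Among regulators of class I transcription and the interferon receptors, 9 of 16 genes had both mutant libraries above both controls and 2 had both below, beside 18.2% and 18.3% of all tested genes, with a median log2 fold change of 0.21. *Nlrc5*, the class I transactivator, had FPKM of 11.1 and 8.25 in mutant lenses against 6.69 and 6.69 in controls, from 1675, 1372, 1105 and 1047 reads. Mutant replicate 1 was the highest, and the log2 fold change of 0.51 (standard error 0.16, adjusted p = 0.748) was 0.30 without it. *Irf1*, an interferon-induced activator of class I genes, had 41 and 27 reads against 19 and 8, a log2 fold change of 1.03 (standard error 0.42, adjusted p = 0.800). *Rfxap*, a subunit of the factor that binds the X box, had a log2 fold change of 0.29 (adjusted p = 0.809). *Nlrc5* overlaps *9330175E14Rik* on the opposite strand, which had up to 236 reads.

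Few other class I and class I-like chains had enough reads to be tested. Of 21 in the table, 9 were listed at 0 in all libraries and 5 passed the filter. A listed 0 need not mean that a gene is silent, since *Lim2* of lens fibres and *Hba-a2* of red blood cells are listed at 0 too. These genes were singled out after their values were seen, as were *H2-Q7* and *H2-Q10*, which are both at 0 and share words of 31 bases with *H2-K1*. All 5 had a positive log2 fold change, and *Hfe*, a class I-like regulator of iron uptake that pairs with beta-2-microglobulin, had the largest. Its FPKM were 2.10 and 2.24 in mutant lenses against 1.55 and 1.03 in controls, a log2 fold change of 0.73 (standard error 0.22, adjusted p = 0.734). *Cd1d1*, which presents lipids, had 0.28 (adjusted p = 0.834) and *Mr1*, which presents microbial metabolites, 0.28 (adjusted p = 0.882). The non-classical *H2-T23* (Qa-1) had 2 reads in mutant replicate 1 and 0 in the other libraries.

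Of the immunoproteasome, which cuts peptides suited to class I, *Psmb10* was the one subunit with more than traces. It had FPKM of 2.30 and 3.18 in mutant lenses against 1.93 and 2.20 in controls, a log2 fold change of 0.38 (standard error 0.19, adjusted p = 0.811). *Psmb8* had 8 and 5 reads against 6 and 0, and *Psmb9*, whose gene overlaps *Tap1*, 11 and 2 against 1 and 0. The proteasome activator genes *Psme1* and *Psme2* had log2 fold changes of 0.18 (adjusted p = 0.811) and 0.09 (adjusted p = 0.892).

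The endoplasmic reticulum partners of class I were divided. Of the 12 tested genes of folding, translocation and cytosolic trimming, 6 had positive and 6 negative log2 fold changes, with a median of 0.0075. *Canx*, which encodes calnexin and holds newly made heavy chains, had FPKM of 14.6 and 18.0 in mutant lenses against 19.7 and 17.8 in controls, a log2 fold change of -0.21 (adjusted p = 0.811), opposite in sign to that of its soluble relative *Calr*. The smallest p-values were those of *Uggt1*, the sensor of misfolded glycoproteins (-0.36, adjusted p = 0.809), *Lap3* (0.19, adjusted p = 0.811) and *Ganab* (-0.20, adjusted p = 0.811). Among 16 general chaperones and isomerases of the endoplasmic reticulum the median was 0.08. *Hspa5* (BiP) had 0.07 (adjusted p = 0.861), *Manf* 0.38 (adjusted p = 0.736), *Pdia6* 0.14 (adjusted p = 0.811) and *Creld2* -0.39 (adjusted p = 0.811).

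Interferon-stimulated genes outside the 10 leaned the same way as the class I complex. Of 41 listed, 28 were tested, and the median log2 fold change was 0.54. It was positive for 24 of the 28, beside 8117 of the 15997 tested genes. Both mutant libraries lay above both controls for 15 of the 28 and below for 1, beside 18.2% and 18.3% of all tested genes. With each library left out in turn, 15 to 25 of the 28 had all mutant above all control libraries and 2 to 3 had all below. Over all tested genes these shares were 32.0% to 37.1% and 32.9% to 34.2%. The lowest count above was without mutant replicate 1 (15) and the highest without mutant replicate 2 (25). The median was 0.20 without mutant replicate 1, 0.75 without mutant replicate 2, and 0.20 with a pseudocount of 1. Many of these genes rest on few reads, and 5 of the 28 had a control mean below the filter, so they passed it through the mutant libraries and could only differ upwards. *Igtp*, an interferon-induced GTPase, had 34 and 27 reads in mutant lenses against 4 and 10 in controls, a log2 fold change of 1.73 (standard error 0.39, adjusted p = 0.612). *Ifit3*, an antiviral effector, had 9 and 14 reads against 0 and 1, a log2 fold change of 1.96 (standard error 0.50, adjusted p = 0.681), and *Ube2l6*, which conjugates ISG15 to proteins, had 49 and 65 against 39 and 38, a log2 fold change of 0.53 (adjusted p = 0.741). *Zbp1*, a sensor of nucleic acids that fell just short of the filter and was singled out after its values were seen, had 14 and 12 reads in mutant lenses against 0 and 0 in controls, at least 4.41-fold higher against a floor of 3 reads in each control library. Summed FPKM of the 41 genes were 25.7 and 17.7 in mutant lenses against 14.5 and 13.3 in controls.

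**Figure D3:**
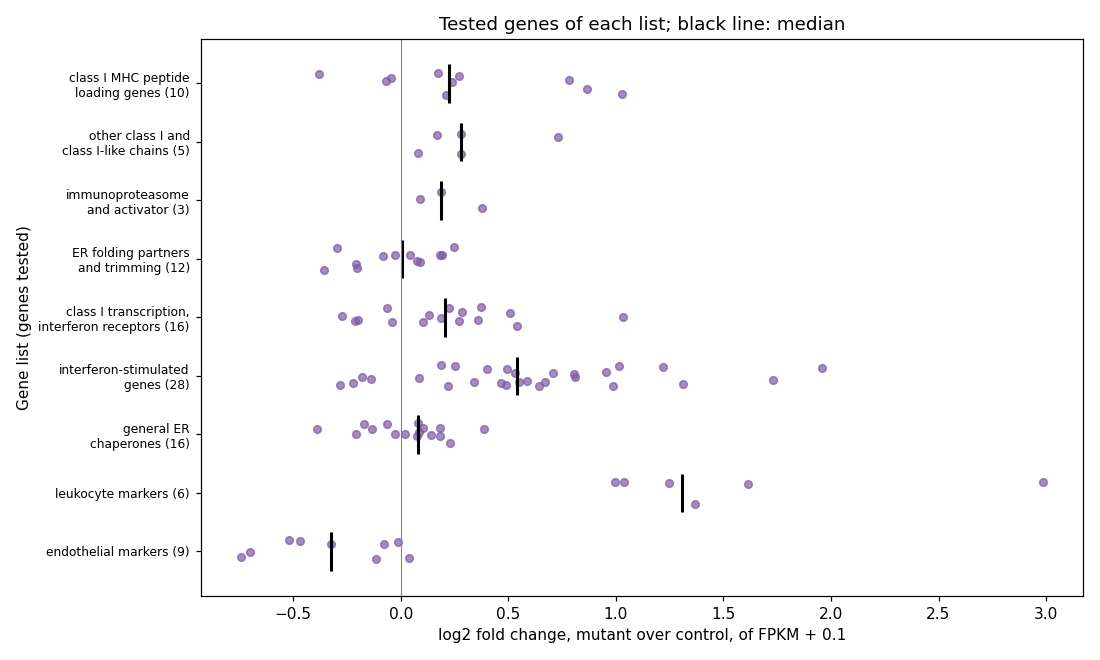
Log2 fold change of mutant over control lenses on log2(FPKM + 0.1) for each tested gene of 9 lists, with the median of each list as a black line and the number of genes tested in parentheses; the 10 class I genes are left out of the other lists. Medians are 0.22 for the class I MHC peptide loading genes, 0.54 for interferon-stimulated genes, 1.31 for the 6 leukocyte markers that passed the filter, 3 of them only through the mutant libraries, and -0.33 for endothelial markers.

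Leukocytes express class I genes strongly. Of 15 leukocyte markers, 6 were tested, and all 6 had both mutant libraries above both controls, beside 18.2% of all tested genes. Counting untested markers, 9 of the 15 lay above, and the others overlapped or had no reads. The untested ones rest on few reads (*Adgre1* on 1 and 1 against 0 and 0), and the 18.2% covers tested genes only. None had an adjusted p under 0.05 in limma. An unadjusted p under 0.05 was found for 5 of the 6, beside 3.39% of all tested genes that were higher at that level. The median log2 fold change of the 6 was 1.31. But 3 of them (*Tyrobp*, *C1qb* and *C1qc*, the last named after its values were seen) had a control mean below the filter. These 3, all among the 5, passed it only through the mutant libraries and could only differ upwards. Neither this median nor the counts of 6 and 5 therefore stand for leukocyte markers in general. *Tyrobp*, an adaptor of myeloid receptors, had 16 and 9 reads in mutant lenses against 0 and 1 in controls, a log2 fold change of 2.99 (standard error 0.49, adjusted p = 0.348). The complement genes *C1qb* and *C1qa*, made by macrophages, had log2 fold changes of 1.37 (adjusted p = 0.736) and 1.04 (adjusted p = 0.761), and *Cd68*, a macrophage marker, had 1.24 (adjusted p = 0.788). Their levels were low. *Ptprc* (CD45), which defines leukocytes, had 2, 1, 2 and 0 reads, *Csf1r* had 10 and 11 against 8 and 5, and *Cd3e* of T cells had 0 in every library. Summed FPKM of the 15 markers were 3.93 and 3.48 in mutant lenses against 1.19 and 0.785 in controls. The part of leukocytes in the levels of *B2m*, *H2-D1* and *H2-K1* and of the interferon-stimulated genes was not tested.

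**Figure D4:**
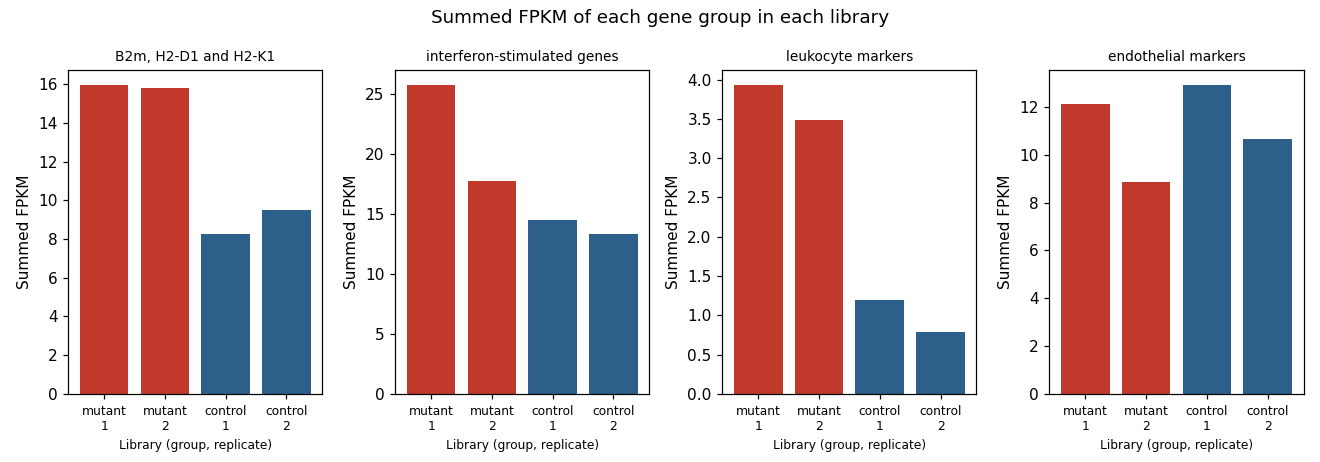
Summed FPKM per library (bars from 0, mutant red and control blue) of B2m with H2-D1 and H2-K1, of 41 interferon-stimulated genes without the 10 class I genes, of 15 leukocyte markers and of 10 endothelial markers. The sums of the interferon-stimulated genes were 25.7 and 17.7 in mutant and 14.5 and 13.3 in control lenses, those of the leukocyte markers 3.93 and 3.48 against 1.19 and 0.785, and those of the endothelial markers 12.1 and 8.86 against 12.9 and 10.7.

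Genes that present antigen on class II, the set of professional antigen-presenting cells, had few reads. Their 7 genes summed to 18 and 21 reads in mutant lenses against 9 and 17 in controls, and only *H2-DMa* was tested, with a log2 fold change of 0.90 (adjusted p = 0.811). Its control mean FPKM of 0.0551 lay below the filter, so it passed only through the mutant libraries and could only differ upwards. Endothelial markers, whose cells also express class I, are given beside the class II genes. Of 9 tested, 0 had both mutant libraries above both controls and 2 had both below, close to the 18.3% of all tested genes, with a median log2 fold change of -0.33. *Esam* had -0.75 (adjusted p = 0.687), *Tie1* -0.70 (adjusted p = 0.805) and *Tek* -0.33 (adjusted p = 0.811), and the defining genes *Pecam1* and *Cdh5* had -0.12 (adjusted p = 0.964) and -0.52 (adjusted p = 0.811).

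Markers of other cell types differed in direction. Among pericyte and fibroblast markers, *Rgs5* had a log2 fold change of -0.59 (adjusted p = 0.736), *Col1a1* of 1.22 (adjusted p = 0.784) and *Pdgfra* of -0.28 (adjusted p = 0.811). Of the hemoglobin genes, which mark red blood cells, *Hba-a1* had -0.50, *Hbb-bt* -0.25 and *Hbb-bs* -0.24. Of the pigmented and ciliary epithelium, *Optc* had 0.43, *Pmel* -0.78 and *Tyrp1* -0.48, and of the retina *Rcvrn* had 0.75 and *Crx* 0.29. The control mean FPKM of *Col1a1* (0.0607) and *Crx* (0.0814) lay below the filter. Both genes passed it through the mutant libraries, so with all 4 libraries their mean FPKM could only differ upwards. Lens epithelial genes *Cdh1* and *Foxe3* had -0.38 and -0.03. *Pdgfra* is on the lens epithelial list as well. It was the 1 of the 6 genes of that list with both mutant libraries below both controls, beside 18.3% of all tested genes. Of lens fibre genes *Lgsn* had -1.72 and *Bfsp2*, a beaded filament protein, 0.13. Limma's adjusted p-values of the genes in this paragraph lay above 0.05 in each case.

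The sex of the pooled mice was checked on other genes. *Uty*, *Eif2s3y* and *Ddx3y*, all on the Y chromosome, had log2 fold changes of -0.44, 0.33 and 0.17, each with overlapping groups. *B2m*, *H2-D1* and *H2-K1* were higher in both mutant libraries, of which one had high and one had low *Xist*. Since each genotype held 1 library with high and 1 with low *Xist*, a covariate for *Xist* left every log2 fold change as it was, and none of the 10 genes had an adjusted p under 0.05 with it.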

How the data were processed

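RNA of whole lenses was sequenced from 2 mutant and 2 control libraries. The authors deposited FPKM for 56748 genes, made from reads aligned with HISAT2 and counted with featureCounts, with gene positions on mm39 per the labels. The table had 0 per-sample columns that were not used. FPKM times gene length were whole multiples of a single step for 100% of values above 0 (tolerance 0.01 reads), which gave reads; the depth used in the FPKM was 0.944 to 1.05 times the recovered total. Libraries were rescaled by median ratio, which changed no value relative to the others. The test, limma 3.58.1 on log2(FPKM + 0.1), took genes whose mean FPKM reached 0.1 (R 4.3.3, trend, Benjamini-Hochberg adjustment), and genes were called at an adjusted p under 0.05. The test was tried on simulated reads. The study's own test, DESeq2, was not run, since the deposited unit is FPKM; voom on recovered reads was the count-based alternative. Member genes and lists were chosen with earlier results of these data known. Named genes are the 10, the 3 genes with the smallest p of each list, fixed regulators and markers, and the 5 nearest to *B2m*. Genes added after values were seen are marked as such, and 3 genes that the rule names are not reported here. Promoters came from RefSeq on GRCm38.p6, where 8 of 10 genes matched, and transcripts from GENCODE M21; no coordinates were moved between builds. Alternatives changed the pseudocount, filter, scaling, trend, test, block or covariate, or left out a library. Depth gives low-FPKM genes few reads, and read floors cover counting error only. Tables were joined with pandas 2.3.3 in Python 3.11.15 and plotted with matplotlib 3.10.9.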

Additional observations from a re-analysis of the deposited data

How the results depend on the processing

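The number of the 10 class I genes with an adjusted p under 0.05 was 0 under all 14 alternatives, as was that of the other class I pathway genes. With 6 genes called in all, the count was 2 with a pseudocount of 1, with one of 0.01, at a mean FPKM of at least 1 and without a trend, 1 without a filter and 1 with the *Xist* covariate, 14 with voom on recovered reads, and 0 with any library left out. The genes with an unadjusted p under 0.05 were 1009, and 617 at a mean FPKM of at least 1 and 747 to 1435 with a library left out. The median log2 fold change of the 10 genes, 0.22, was 0.12 with a pseudocount of 1 and 0.20 to 0.30 with a library left out. *Lgsn* was called by voom (log2 fold change -1.75, adjusted p = 0.0031, and up to 0.895 over the other alternatives). A lone library left in a group is assumed to vary like the others. *B2m*, *H2-K1* and *H2-D1* had positive log2 fold changes in every alternative run. With single libraries left out, the log2 fold changes of *Tap1* (-0.19 to 0.34 over 2 fits), *Tapbp* (-0.24 to 0.10) and *Tapbpl* (-0.28 to 0.19) spanned 0, and some of other genes changed sign, none past the threshold. Without mutant replicate 1 these were *Hbb-bt* (range over the 4 fits -0.76 to 0.26), *Cdh1* (-0.77 to 0.016) and *Foxe3* (-0.15 to 0.090, also without control replicate 2). Without mutant replicate 2 they were *Psme2* (-0.0094 to 0.18), *Hba-a1* (-1.03 to 0.020), *Pecam1* (-0.52 to 0.28, also without control replicate 1) and *Cdh5* (-1.06 to 0.013). Without control replicate 1 they were *Cd1d1* (-0.0093 to 0.56), *Hbb-bs* (-0.97 to 0.48), *Rcvrn* (-0.28 to 1.77), *Eif2s3y* (-0.28 to 0.93) and *Ddx3y* (-0.48 to 0.83). Without control replicate 2 they were *Crx* (-0.41 to 1.27 over 2 fits) and *Pdgfrb* (-0.0028 to 0.32). The cause was not tested. With the replicate numbers of the labels as a replicate block, 3 genes were called and 880 had an unadjusted p under 0.05. The numbers are not known to pair the pools, and the correlation of same-numbered deviations was -0.0051.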
